A study of Mus musculus with 14 samples.

Results

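Matrix metalloproteinases, the tissue inhibitors that hold them in check and the urokinase branch of the plasminogen system were followed in 4T1 mammary carcinoma cells grown as spheroids. The group was listed by gene symbol, with earlier results of these data known: Mmp3, Mmp9, Mmp13, Mmp14, Timp1, Timp2, Timp3, Plau, Plaur and Plat. Of these 10 listed genes, 9 had a row among the 19525 genes of the count table, and Timp3 was not analysed here. 4T1 is a triple-negative breast cancer line from mouse.

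Spheroids grew for 5 days in a medium made to resemble lung fluid (lung-like medium, LLM). Cells with a non-targeting hairpin received 700 µM aspartate (ASP shSCR, 4 libraries) or no added aspartate (NoASP shSCR, 3 libraries), and cells with a hairpin against Grin2d (ASP shGRIN2D, 3 libraries) or Dhps (ASP shDHPS, 4 libraries) received 700 µM aspartate. Grin2d encodes a subunit of the NMDA-type glutamate receptor, and the product of Dhps, deoxyhypusine synthase, starts the conversion of a lysine of the translation factor eIF5A to hypusine. The lines were polyclonal and puromycin-selected after lentiviral transduction, and each target was represented by 1 line here, so an effect of the line and one of its target cannot be told apart. RNA came from the cytosolic lysate of spheroids grown on soft agar, which the study describes as the input of a polysome experiment with 4 independent pellets per condition. Library totals lay between 12731123 and 23231378 counts. Dhps was at 5.46 to 9.08 CPM (the unit of all levels here, a count corrected for library size with TMM factors) in ASP shDHPS against 16.7 to 22.1 CPM in ASP shSCR (log2 fold change -1.48, SE 0.15, adjusted p = 8.31e-06). Grin2d was at 2.06 to 3.13 CPM in ASP shGRIN2D and at 3.23 to 4.16 CPM in ASP shSCR, a difference that did not pass the test (log2 fold change -0.55, adjusted p = 0.516). It was at 3.05 to 6.95 CPM in NoASP shSCR and 2.21 to 4.59 CPM in ASP shDHPS, and both overlapped ASP shGRIN2D.

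Matrix metalloproteinases are zinc enzymes, made as inactive proenzymes, that cleave collagens, laminins and other matrix proteins. Tissue inhibitors of metalloproteinases bind their active sites. Urokinase, held at the cell surface by its receptor, turns plasminogen into plasmin, which degrades fibrin and can activate several proenzymes of the metalloproteinase family. Carcinoma cells use these systems at the invasive edge, and part of the proteases of a tumour usually comes from stromal and immune cells.

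The markers of the labelled cell type were present: all 8 epithelial markers were counted, with a summed level of 3432 to 4683 CPM over the 14 libraries. Leukocyte markers summed to 5.99 to 16.9 CPM, nearly all of it Cd68, a lysosomal protein not restricted to leukocytes. Ptprc, which marks all leukocytes, had at most 12 counts in any library, Csf1r at most 7 and Itgam at most 5. Of the fibroblast markers, Dcn had at most 1 count and Fap at most 3, while Thy1 and Pdgfra were expressed. Endothelial markers summed to at most 0.550 CPM. Replicate 2 of both shSCR groups stood apart from the other shSCR libraries on the first principal component, at 25.8 with and 19.7 without aspartate. Estimates without replicate 2 are given for the genes it moved most. The ASP shDHPS libraries were spread on this component too, with replicates 1 to 4 at -27.6, -9.36, -19.1 and -6.33.

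Sequences just upstream of the start site were available from RefSeq (assembly GRCm38.p6, 250 bases before to 50 after the start) for Mmp3, Mmp13, Mmp14, Timp1, Timp2 and Plaur, 6 of the 9 measured genes. AP-1 sites, bound by Fos and Jun proteins, are textbook elements of collagenase, stromelysin and urokinase receptor promoters, so the windows were searched on both strands for the AP-1 letters TGANTCA. The stretches below are shown because they hold a match, and the capitals mark it. They lie at chr9:7445765-7445794, chr9:7272468-7272497 and chr7:24462403-24462432 on the plus strand, in that order.
Mmp3: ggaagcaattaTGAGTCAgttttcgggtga
Mmp13: ccccaaagtggTGACTCAtcactatcatgc
Plaur: acccctggagcTGACTCActctttagcaaa

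Counted from the start site, the match lay at -46 to -40 in Mmp3, at -35 to -29 in Mmp13 and at -69 to -63 in Plaur. The letters were not in the windows of Mmp14, Timp1 and Timp2, and 7.81% of 32851 promoters of the same length held them. The ETS-type letters AGGAAG, which do not overlap the AP-1 letters and occur in 35.4% of promoters, were in 5 of the 6 windows, with Timp2 as the one without. The 8-base cyclic AMP element TGACGTCA, present in 1.79% of promoters, was in none of the 6. These matches describe letters and not binding.

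Per kilobase of the longest annotated transcript, the inhibitor Timp2 had the highest mean of the 9 genes, at 149.8 CPM per kilobase over the 14 libraries. Plaur, the urokinase receptor, followed at 124 CPM per kilobase. In ASP shDHPS the libraries of both genes overlapped, at 142 to 171 for Timp2 and 150.4 to 159 CPM per kilobase for Plaur, and in the other 3 groups Timp2 was higher in every library. Mmp3 (78.3), Plau (76.0), Timp1 (65.8) and Mmp14 (63.5 CPM per kilobase) formed a middle tier whose libraries overlapped. Mmp9 was lower, at 15.1, then Plat at 6.65 and Mmp13 at 1.56 CPM per kilobase. Mmp9 had the widest spread among the better expressed genes, from 6.92 to 34.6 CPM per kilobase. Mmp13 had as few as 22 counts in a library, so its values carry a large counting error.

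**Figure D1:**
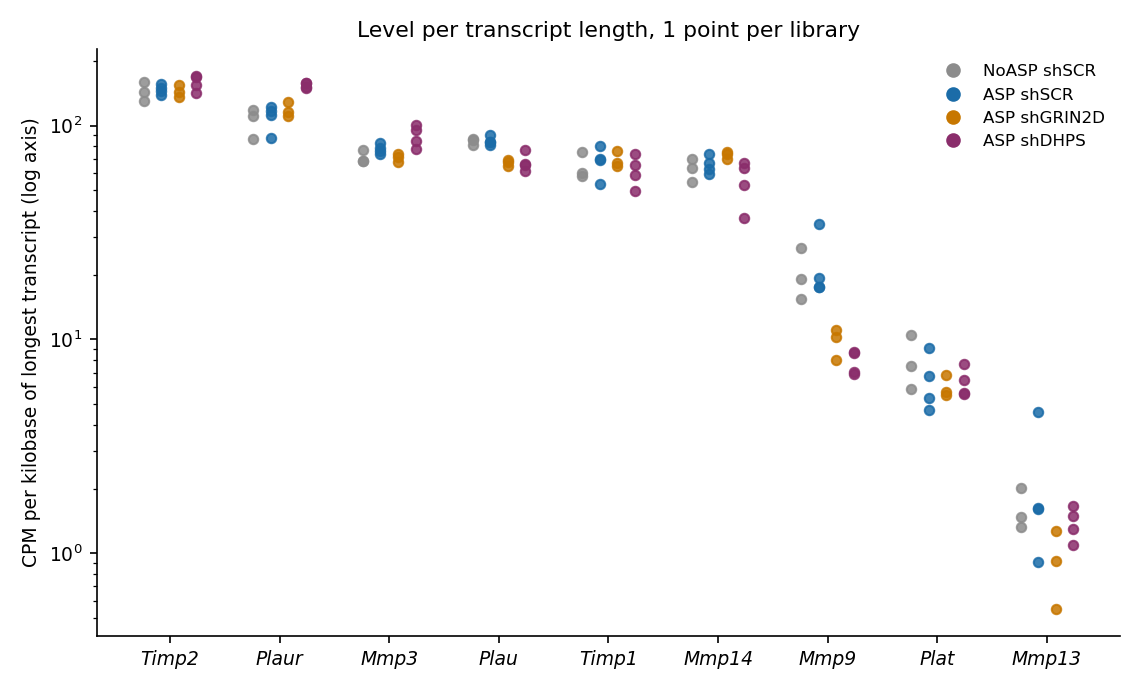
Level of the 9 measured genes in CPM per kilobase of the longest transcript (log axis), 1 point per library, coloured by group. Timp2 and Plaur lie at the top with means of 149.8 and 124 CPM per kilobase, and Mmp13 at the bottom with 1.56 CPM per kilobase.

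Whether added aspartate changed these genes was asked in the shSCR spheroids. No change was detected in any of the 9. None passed the threshold of an adjusted p under 0.05 (edgeR quasi-likelihood test, Benjamini-Hochberg over 19525 genes), against a background of 0% of all genes. No gene of the 9 had an unadjusted p under 0.05 either. Most of the table was alike in this, since only 424 of 19525 genes had one. DESeq2 also called 0 genes. The groups overlapped for each of the 9 genes, while 2.71% of all genes had groups that did not overlap. The intervals were widest for the least expressed genes: Mmp13 differed by 0.45 on the log2 scale (95% interval -0.30 to 1.21) and Plat by -0.31 (-0.73 to 0.10). Mmp9, although better expressed, had an interval nearly as wide as that of Plat, with a difference of 0.12 (-0.29 to 0.54). Timp2, by contrast, differed by 0.03 (-0.16 to 0.22) and Plau by 0.004 (-0.18 to 0.19). Same-numbered shSCR libraries deviated together, and a fit blocked on that number called 2 genes of the table over all libraries and 64 over both shSCR groups, none of the 9 among them. Within the 3 same-numbered pairs, Mmp3, Mmp9, Mmp14 and Plaur were higher with aspartate in 3 of 3 and Plat was lower in 3 of 3. The smallest adjusted p of the 9 genes in these blocked fits was 0.654, for Mmp9.

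**Figure D2:**
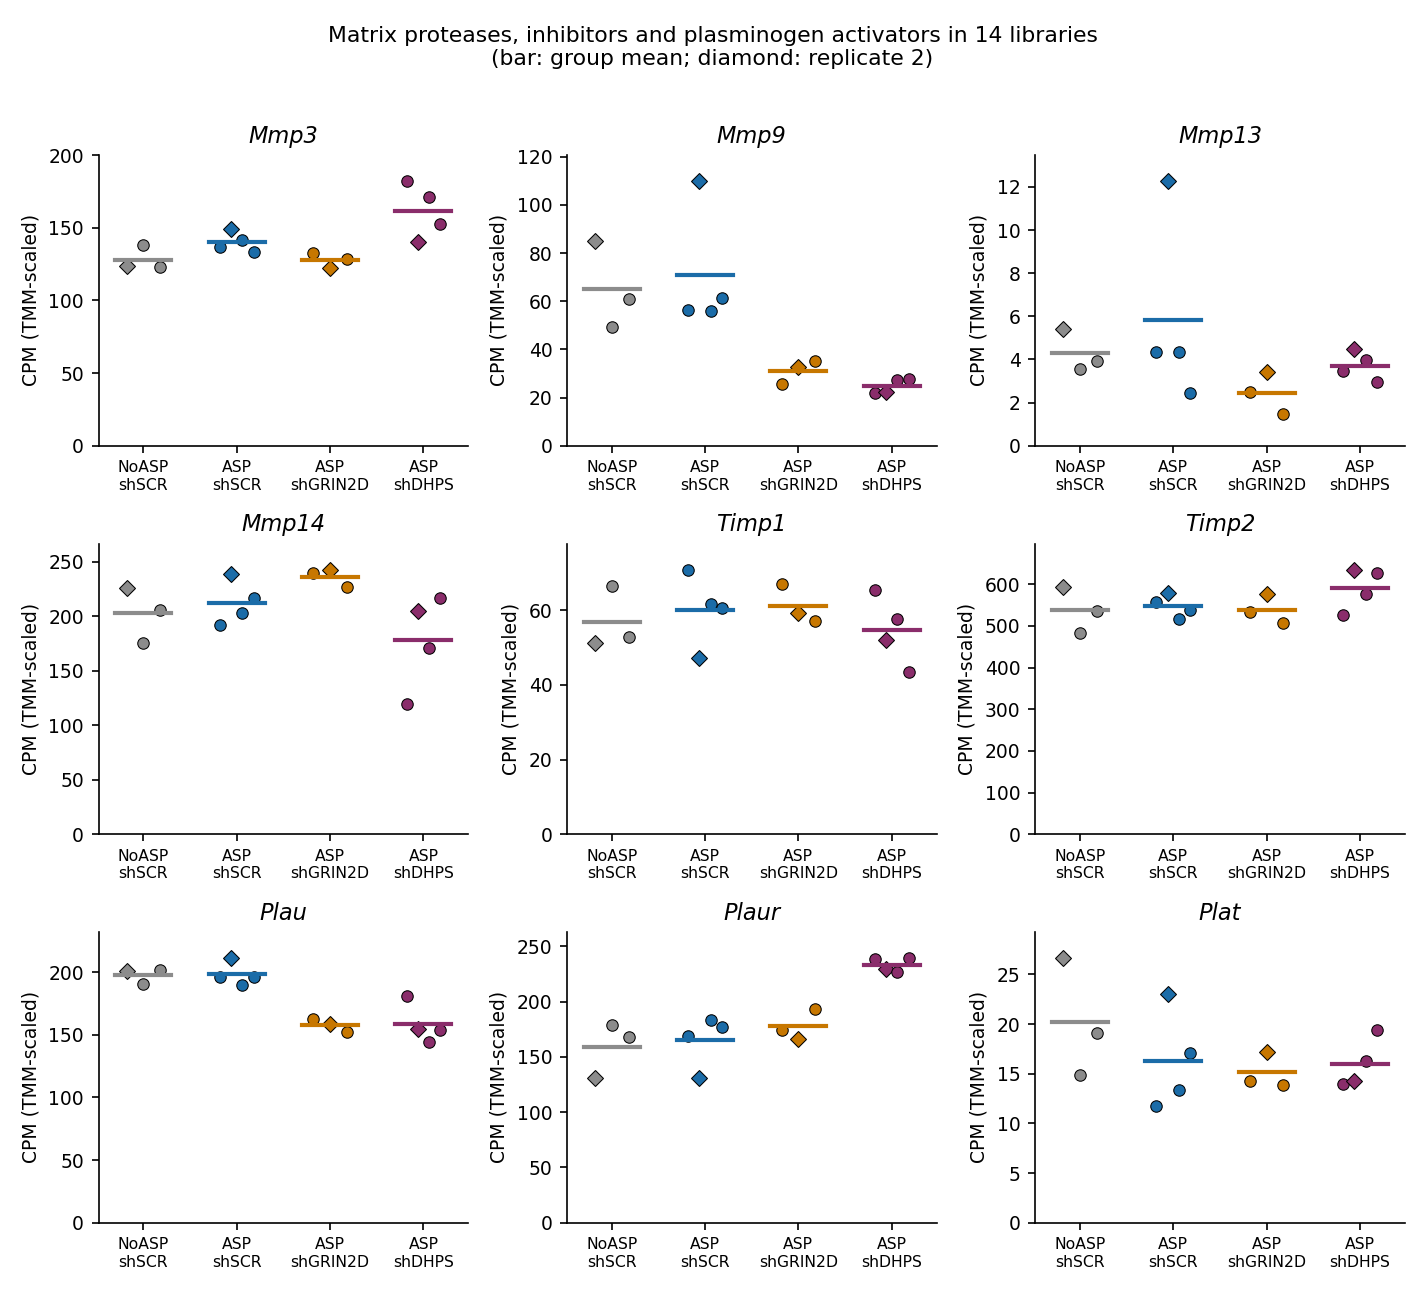
TMM-scaled CPM of each of the 9 genes in every library, by group, with a bar at the group mean and diamonds for replicate 2. For Mmp9 the shGRIN2D and shDHPS libraries (22.0 to 35.2 CPM) all lie below the shSCR libraries (49.3 to 109.7 CPM), and for Plaur the shDHPS libraries (227 to 239 CPM) all lie above the rest. The share of all genes with such splits was not counted.

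Of the metalloproteinases, Mmp9 (gelatinase B, ENSMUSG00000017737), which cleaves denatured collagen and type IV collagen of basement membranes, fell with both targeting hairpins. Its levels in ASP shSCR replicates 1 to 4 were 56.1, 109.7, 55.9 and 61.4 CPM, and those in NoASP shSCR replicates 2 to 4 were 84.8, 49.3 and 61.0 CPM. In ASP shGRIN2D replicates 1 to 3 it stood at 25.5, 32.5 and 35.2 CPM, and in ASP shDHPS replicates 1 to 4 at 22.0, 22.3, 27.4 and 27.9 CPM. Every library with a targeting hairpin was thus below every library with the control hairpin, with or without aspartate. How many of all genes split in this way was not counted. Against ASP shSCR alone, 12.0% of all genes did not overlap with shGRIN2D and 11.1% with shDHPS. The high value among the controls was replicate 2 in either medium.

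The mean Mmp9 level was 70.8 ± 26.1 CPM (SD, n = 4) in ASP shSCR, 31.1 ± 4.98 (SD, n = 3) in ASP shGRIN2D and 24.9 ± 3.18 CPM (SD, n = 4) in ASP shDHPS. Against ASP shSCR, its change was -1.19 on the log2 scale with shGRIN2D (SE 0.21, 95% interval -1.62 to -0.76, adjusted p = 0.00300), a level 2.28-fold lower. With shDHPS it was -1.51 (SE 0.19, interval -1.90 to -1.11, adjusted p = 9.13e-05), or 2.84-fold lower. Without ASP shSCR replicate 2 the changes were smaller and still passed the test, at -0.90 (adjusted p = 0.00249) and -1.21 (adjusted p = 3.09e-05). The narrowest margin came without ASP shGRIN2D replicate 1, where the adjusted p for shGRIN2D was 0.0499. Between both hairpins Mmp9 overlapped and differed by -0.32 (interval -0.75 to 0.11, adjusted p = 0.489), shDHPS being the lower.

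Mmp9 was the only one of the 9 genes called with shGRIN2D, where 1.16% of all genes were called. With shDHPS 3 of the 9 were called, namely Mmp9, Plau and Plaur, against 4.22% of all genes. Among genes that averaged 5 CPM or more, the background was 1.89% and 6.93%. The 9 genes were chosen with earlier results of these data known, so these shares are a description only. Both comparisons use the same 4 ASP shSCR libraries, so they are not independent of each other. When the test asked for a change beyond 1.5-fold, Mmp9 with shDHPS was the one call left among the 9 genes.

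Mmp3 (stromelysin-1, ENSMUSG00000043613), which cleaves proteoglycans, laminin and other proenzymes of the family, was not called in any comparison as fitted here. It ranged from 133 to 149 CPM in ASP shSCR, 123 to 138 in NoASP shSCR, 122 to 133 in ASP shGRIN2D and 141 to 182 CPM in ASP shDHPS. The shGRIN2D libraries lay just below the ASP shSCR libraries and the shDHPS libraries overlapped them. Its estimates against ASP shSCR were -0.13 with shGRIN2D (adjusted p = 0.653) and 0.21 with shDHPS (adjusted p = 0.195). Placed against each other, shDHPS was above shGRIN2D in every library, by 0.34 (interval 0.14 to 0.54, adjusted p = 0.0552). That difference of Mmp3 was close to the threshold, and it passed in 7 of 15 alternatives, among them DESeq2 (adjusted p = 0.00727) and the filter on low counts (0.0414).

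Mmp14 (membrane-type 1 metalloproteinase, ENSMUSG00000000957), a collagenase anchored in the cell membrane, was at 192 to 239 CPM in ASP shSCR, 176 to 226 in NoASP shSCR and 227 to 243 CPM in ASP shGRIN2D. In ASP shDHPS replicates 1 to 4 it was 119, 205, 171 and 217 CPM, the widest spread of any group, with replicate 1 far below the others. Mmp14 differed from ASP shSCR by 0.15 with shGRIN2D (adjusted p = 0.754) and by -0.26 with shDHPS (adjusted p = 0.292). The shDHPS libraries were all below the shGRIN2D libraries, with an estimate of -0.41 (interval -0.70 to -0.12, adjusted p = 0.141). Without ASP shDHPS replicate 1 the Mmp14 estimates were -0.11 against ASP shSCR and -0.26 against ASP shGRIN2D, and without ASP shDHPS replicate 4 the second was -0.52 and passed (adjusted p = 0.0473).

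Mmp13 (collagenase-3, ENSMUSG00000050578), which cleaves fibrillar collagen, was near the lower limit of useful counts. ASP shSCR replicates 1 to 4 had 4.33, 12.3, 4.36 and 2.44 CPM, and the shGRIN2D libraries 2.47, 3.41 and 1.47 CPM. Replicate 2 again held the high control value, and the groups overlapped. The estimate of -1.25 with shGRIN2D was as large as that of Mmp9 and had an SE of 0.39 (interval -2.06 to -0.45, adjusted p = 0.154). That estimate passed in 2 of 15 alternatives, both with a replicate block. With shDHPS, at 2.94 to 4.46 CPM, it was -0.67 (interval -1.37 to 0.04, adjusted p = 0.288). Without ASP shSCR replicate 2 the Mmp13 estimates shrank to -0.61 with shGRIN2D (adjusted p = 0.529) and -0.03 with shDHPS (adjusted p = 0.983), so their size rested on that library.

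The inhibitors did not pass the test in any comparison. Timp2 (ENSMUSG00000017466), which inhibits metalloproteinases and also takes part in the activation of pro-MMP2 by Mmp14, lay at 516 to 578 CPM in ASP shSCR, 483 to 592 in NoASP shSCR, 507 to 576 in ASP shGRIN2D and 526 to 634 CPM in ASP shDHPS. All groups overlapped, and its estimate was -0.02 with shGRIN2D (interval -0.21 to 0.17) and 0.11 with shDHPS (interval -0.07 to 0.29), intervals that hold no change beyond 0.29 on the log2 scale. Timp1 (ENSMUSG00000001131), a secreted inhibitor of most soluble family members, ranged from 47.3 to 70.8 CPM in ASP shSCR, 51.3 to 66.6 in NoASP shSCR, 57.2 to 67.2 in ASP shGRIN2D and 43.6 to 65.3 CPM in ASP shDHPS. It overlapped between all groups too, with estimates of 0.02 (interval -0.26 to 0.31) and -0.14 (interval -0.40 to 0.12).

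**Figure D3:**
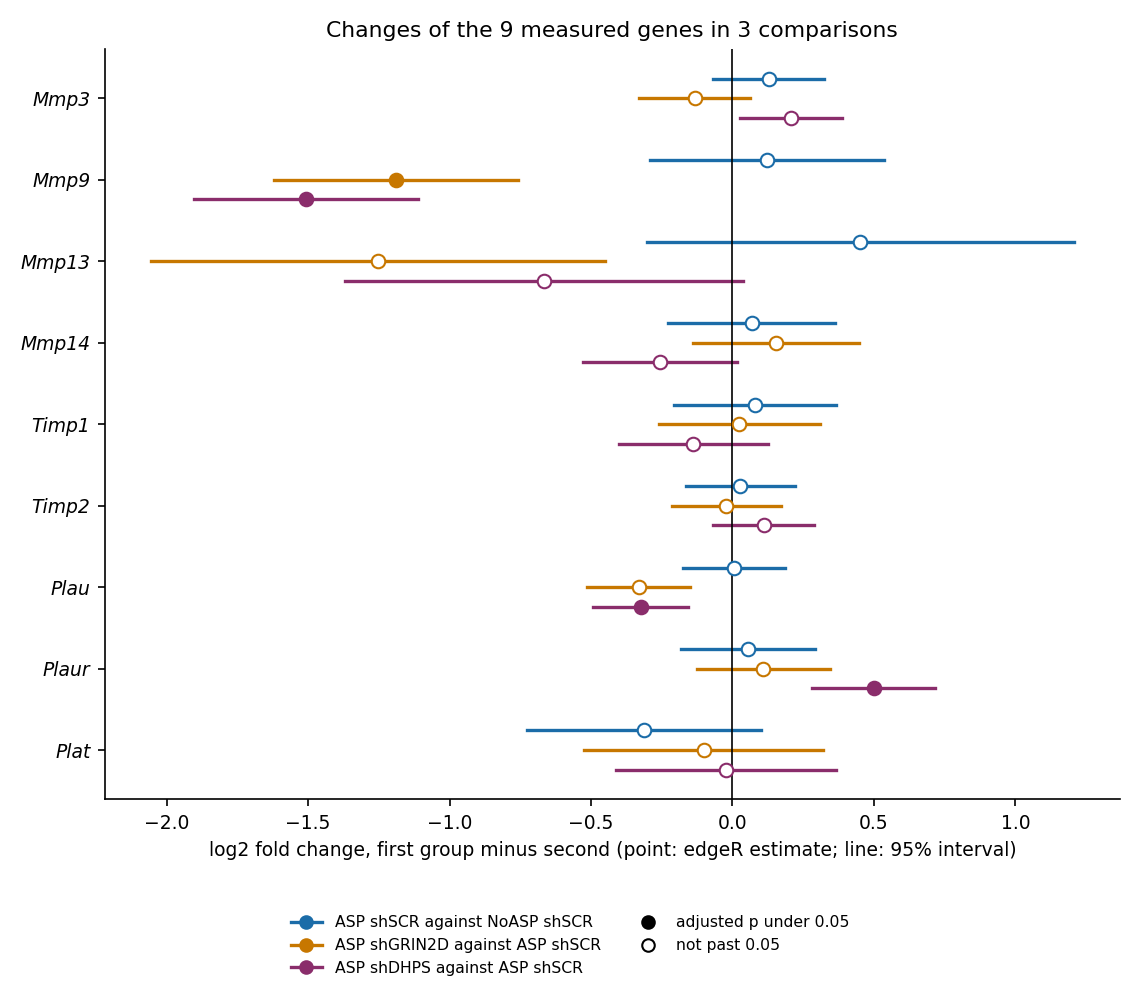
Log2 fold changes (points, edgeR estimates) with 95% intervals (lines) of the 9 genes for aspartate in shSCR spheroids and for each targeting hairpin against ASP shSCR; filled points passed an adjusted p of 0.05. Mmp9 lies at -1.19 and -1.51 with both hairpins, Plaur at 0.50 with shDHPS, and the aspartate intervals all include 0.

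In shDHPS spheroids the RNA of the urokinase receptor rose and that of the enzyme fell. The fall of the enzyme was of like size with shGRIN2D, and its call with shDHPS was lost in several alternatives given below. Plaur (urokinase receptor, ENSMUSG00000046223), a surface protein that holds urokinase at the membrane, was at 169, 131, 183 and 177 CPM in ASP shSCR replicates 1 to 4, and at 131, 179 and 168 CPM in NoASP shSCR replicates 2 to 4. It was at 174, 166 and 194 CPM in ASP shGRIN2D and at 239, 229, 227 and 239 CPM in ASP shDHPS. The shDHPS libraries were above all others and close together, a split whose share of all genes was not counted. The lowest value in each shSCR group was replicate 2. From 165 ± 23.4 CPM (SD, n = 4) in ASP shSCR to 233 ± 6.48 CPM (SD, n = 4), Plaur rose with shDHPS by 0.50 (SE 0.11, interval 0.28 to 0.72, adjusted p = 0.00805), or 1.41-fold, and by 0.40 without ASP shSCR replicate 2 (adjusted p = 0.0283). With shGRIN2D the estimate was 0.11 (interval -0.13 to 0.34, adjusted p = 0.789). The difference between both hairpins, 0.39 (interval 0.15 to 0.63), had an adjusted p of 0.0710, and passed in 5 of 15 alternatives, among them DESeq2 (0.0275) and only the groups compared (0.0232).

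Plau (urokinase, ENSMUSG00000021822) was at 196, 211, 190.1 and 196 CPM in ASP shSCR replicates 1 to 4 and at 201, 190.4 and 202 CPM in NoASP shSCR replicates 2 to 4. In ASP shGRIN2D it was at 163, 158 and 152 CPM, and in ASP shDHPS at 181, 155, 144 and 154 CPM. As for Mmp9, both targeting hairpins gave values below all shSCR libraries, and the share of all genes with that split was not counted. Means were 198 ± 8.83 CPM in ASP shSCR, 158 ± 5.31 in ASP shGRIN2D and 158 ± 15.8 CPM in ASP shDHPS (SD, n = 4, 3 and 4). The estimates were -0.33 with shGRIN2D (SE 0.09, interval -0.51 to -0.15) and -0.32 with shDHPS (SE 0.08, interval -0.49 to -0.16), and the difference between the hairpins was 0.007 (interval -0.17 to 0.19). Plau fell by the test with shDHPS (adjusted p = 0.0232) and did not pass it with shGRIN2D (adjusted p = 0.0766). The shDHPS call was lost when ASP shSCR replicate 2 (adjusted p = 0.0816) or 4 (0.0527), or ASP shDHPS replicate 2 (0.0613) or 3 (0.0944), was left out.

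Plat (tissue plasminogen activator, ENSMUSG00000031538), the activator best known for dissolving clots, was at 11.8 to 23.1 CPM in ASP shSCR, 14.8 to 26.6 in NoASP shSCR, 13.9 to 17.2 in ASP shGRIN2D and 13.97 to 19.4 CPM in ASP shDHPS. The groups overlapped, and replicate 2 was the highest shSCR library in either medium. Plat differed by -0.10 with shGRIN2D (interval -0.52 to 0.32) and by -0.02 with shDHPS (interval -0.41 to 0.36), both far from the threshold.

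Counted over the 9 genes, 3 had groups that did not overlap with shGRIN2D (Mmp3, Mmp9 and Plau), where 12.0% of all genes did so, and 3 with shDHPS (Mmp9, Plau and Plaur), where the share of all genes was 11.1%. Among genes averaging 5 CPM or more these shares were 17.1% and 16.7%. The median change of the 9 was -0.10 with shGRIN2D and -0.14 with shDHPS, against medians of 0 and 0.005 over all genes. In the direct comparison of ASP shDHPS with ASP shGRIN2D, 0 of the 9 were called although 2.82% of all genes were, and 3 of the 9 had an unadjusted p under 0.05. Mmp3, Mmp14 and Plaur had libraries that did not overlap there, as had 15.1% of all genes and 21.5% of genes averaging 5 CPM or more. DESeq2 called 2 of the 9 in that comparison.

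Beside these falls, the summed epithelial markers were also lower with both targeting hairpins, at 3432 to 3695 CPM in ASP shGRIN2D and 3656 to 4271 CPM in ASP shDHPS against 4507 to 4683 CPM in ASP shSCR. Of the 8 markers, 2 were called lower with shGRIN2D, and 2 were called lower and 1 higher with shDHPS. The summed leukocyte markers were at 12.6 to 16.9 CPM in ASP shDHPS and 5.99 to 13.1 CPM in ASP shSCR, with Ptprc, Csf1r and Itgam near 0. What part these values had in the changes of Mmp9, Plau and Plaur was not tested. In bulk RNA a smaller share of cells that express a gene and less RNA per cell cannot be told apart.

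The 7 letters TCATGAA, a word picked with earlier results of these data known, were looked for in 3′ untranslated regions of genes averaging 5 CPM or more. Of the genes called lower with shGRIN2D, 48.4% of 124 carried them, compared with 12.6% of 9699 genes in all and 14.9% of 409 genes called lower with shDHPS. The letters were searched in the transcript strand, in the longest such region of GENCODE vM21. They were not found in the regions of Mmp9, Plau, Plaur, Mmp3, Mmp14, Timp1, Timp2 or Plat, and Mmp13 had 1 copy. Because of how the word was picked, its shares are a description only. Mmp9 was called with shGRIN2D and had no copy of these letters in its annotated region. The part of the word in the estimates of Mmp9 and Mmp13 was not tested.

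Replicate 2 was the highest or lowest library of both shSCR groups in most of these genes, by distances that varied. Mmp9, Mmp13, Mmp14, Timp2 and Plat were highest in replicate 2 of both groups, and Timp1 and Plaur were lowest in it, which left Mmp3 and Plau without a shared position. Relative to the mean of the other replicates, the ASP library was higher by 1.74 on the log2 scale for Mmp13, 0.92 for Mmp9 and 0.73 for Plat, and the NoASP library by 0.52, 0.63 and 0.66. Mmp14 was higher by 0.23 and 0.25 and Timp2 by 0.11 and 0.22. Plaur was at -0.43 and -0.41, and Timp1 at -0.44 and -0.21. This position was common in the table, since 47.5% of the 10224 genes averaging 5 CPM or more were highest or lowest in replicate 2 of both groups. The direction of replicate 2 was opposite to that of shDHPS for Mmp9 and Plaur, which is why both were also given without it.

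**Figure D4:**
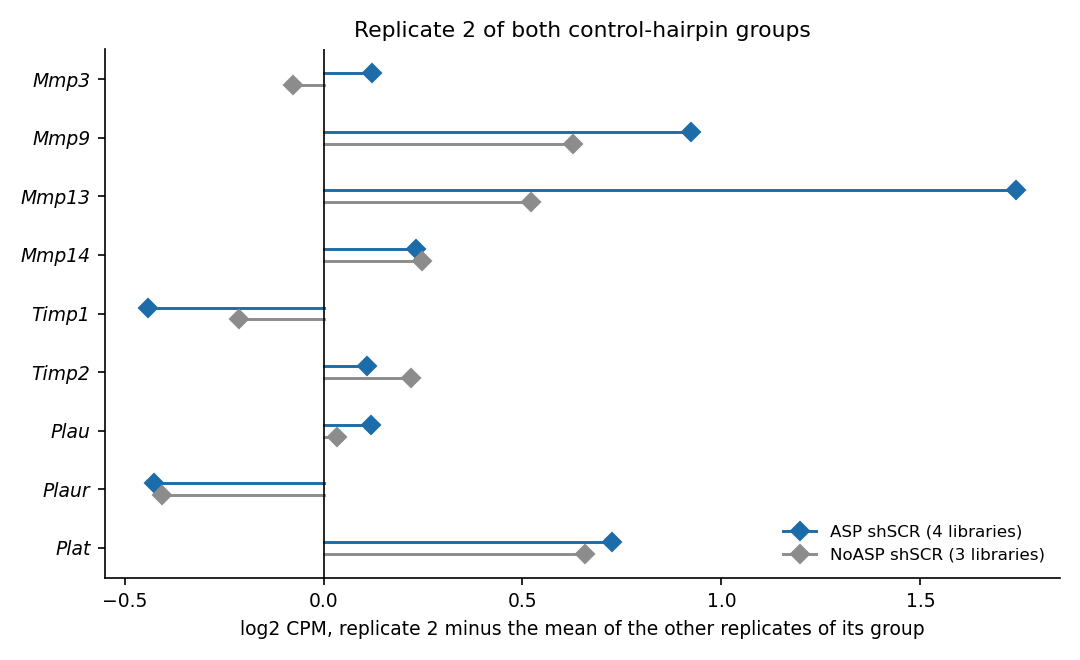
Difference in log2 CPM between replicate 2 and the mean of the other replicates of its group, for ASP shSCR (blue) and NoASP shSCR (grey), for the 9 genes. Mmp9, Mmp13 and Plat lie to the right in both groups (0.52 to 1.74), and Timp1 and Plaur to the left (-0.44 to -0.21).

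The surrounding pathway was read from lists of other metalloproteinases, ADAM-type proteases, cathepsins, plasminogen partners, further inhibitors, membrane serine proteases with convertases, and matrix substrates, 110 genes of which 90 were in the table. The lists too were chosen with earlier results of these data known, so their shares are a description only. Of the 110 genes, those without a row were left out. Of these 90, 0 were called for aspartate, 3 with shGRIN2D (3.33%), 8 with shDHPS (8.89%) and 9 between the hairpins (10%), beside 1.16%, 4.22% and 2.82% of all genes and 1.89%, 6.93% and 4.66% of genes averaging 5 CPM or more. The other metalloproteinases gave no call in any comparison: 12 of 19 were in the table, and only Mmp10, Mmp11 and Mmp15 reached a mean of 5 CPM. Mmp2, the other gelatinase, was not analysed here. None of the 12 measured plasminogen partners was called against ASP shSCR.

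With shGRIN2D, Htra1, a secreted serine protease, fell from 184 to 129 CPM (log2 fold change -0.52, adjusted p = 0.00294). Slpi, an inhibitor of serine proteases such as elastase, rose from 181 to 256 CPM (0.50, adjusted p = 0.0124), and Pcsk6, a proprotein convertase, rose from 20.9 to 29.5 CPM (0.50, adjusted p = 0.0190). The Htra1 call was kept with each library left out, that of Slpi was lost without ASP shSCR replicate 4 or ASP shGRIN2D replicate 1 or 2, and that of Pcsk6 without ASP shSCR replicate 1 or 4 or any ASP shGRIN2D library. Slpi and Pcsk6 also differed between the hairpins, by -0.53 (adjusted p = 0.00406) and -0.48 (adjusted p = 0.0133), both being lower with shDHPS, and the call of Pcsk6 was again lost without any ASP shGRIN2D library.

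With shDHPS, 4 of 10 genes in the list of cathepsins and other secreted proteases were called higher and 0 lower, where 4.22% of all genes were called. Htra1 (-0.25, adjusted p = 0.0881) and the heparanase gene Hpse (-0.59, adjusted p = 0.108) of the same list had negative estimates that did not pass; Hpse was picked after its values were seen. Lgmn, the asparaginyl endopeptidase legumain of lysosomes, rose from 25.5 to 39.4 CPM (0.63, adjusted p = 0.000465). The lysosomal cathepsins Ctsz (0.44, adjusted p = 0.00343), Ctsb (0.38, adjusted p = 0.00675) and Ctsl (0.31, adjusted p = 0.0446) rose with it, and the call of Ctsl was lost without any 1 library of both groups other than ASP shDHPS replicate 2. Cst6, cystatin E/M, an inhibitor of legumain and cathepsins, had the largest change of these genes, from 34.2 to 75.9 CPM (1.15, adjusted p = 0.000140). Protease and inhibitor thus rose side by side, and both were higher than with shGRIN2D (Lgmn by 0.44, adjusted p = 0.0162, and Cst6 by 0.71, adjusted p = 0.0165). Between the hairpins, the Lgmn call was lost without any ASP shGRIN2D library, and the Cst6 call without ASP shGRIN2D replicate 1 or 2 or ASP shDHPS replicate 3.

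Adamts1, a secreted protease that cleaves the proteoglycans aggrecan and versican, rose with shDHPS by 0.61 (adjusted p = 0.0349), a call lost without ASP shSCR replicate 1 or 2 or ASP shDHPS replicate 2, 3 or 4. Prss22, a serine protease of epithelia, fell (-0.56, adjusted p = 0.0134, and not called without ASP shSCR replicate 2). Spp1 (osteopontin), a secreted matrix protein that metalloproteinases cleave, fell from 4636 to 3207 CPM (-0.53, adjusted p = 0.00480). Spp1 was also lower with shDHPS than with shGRIN2D (-0.66, adjusted p = 0.00139). Further genes that differed between the hairpins were Tnc (1.05), Plgrkt (0.56) and Adam19 (0.54), higher with shDHPS, and Fn1 (-0.88), lower with it. Tnc and Fn1 are matrix glycoproteins, Plgrkt is a plasminogen receptor of the cell surface, and Adam19 is a membrane-bound sheddase. The calls of Tnc and Adam19 were lost without any ASP shGRIN2D library, and without ASP shDHPS replicate 4 (both) or 2 (Adam19). The call of Plgrkt was lost without ASP shGRIN2D replicate 1 or 3 or ASP shDHPS replicate 1, 2 or 3. The Fn1 groups overlapped, and its call was lost with DESeq2, with library size only, with the filter on low counts and without ASP shGRIN2D replicate 2 or 3 or ASP shDHPS replicate 1, 2 or 3.

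**Figure D5:**
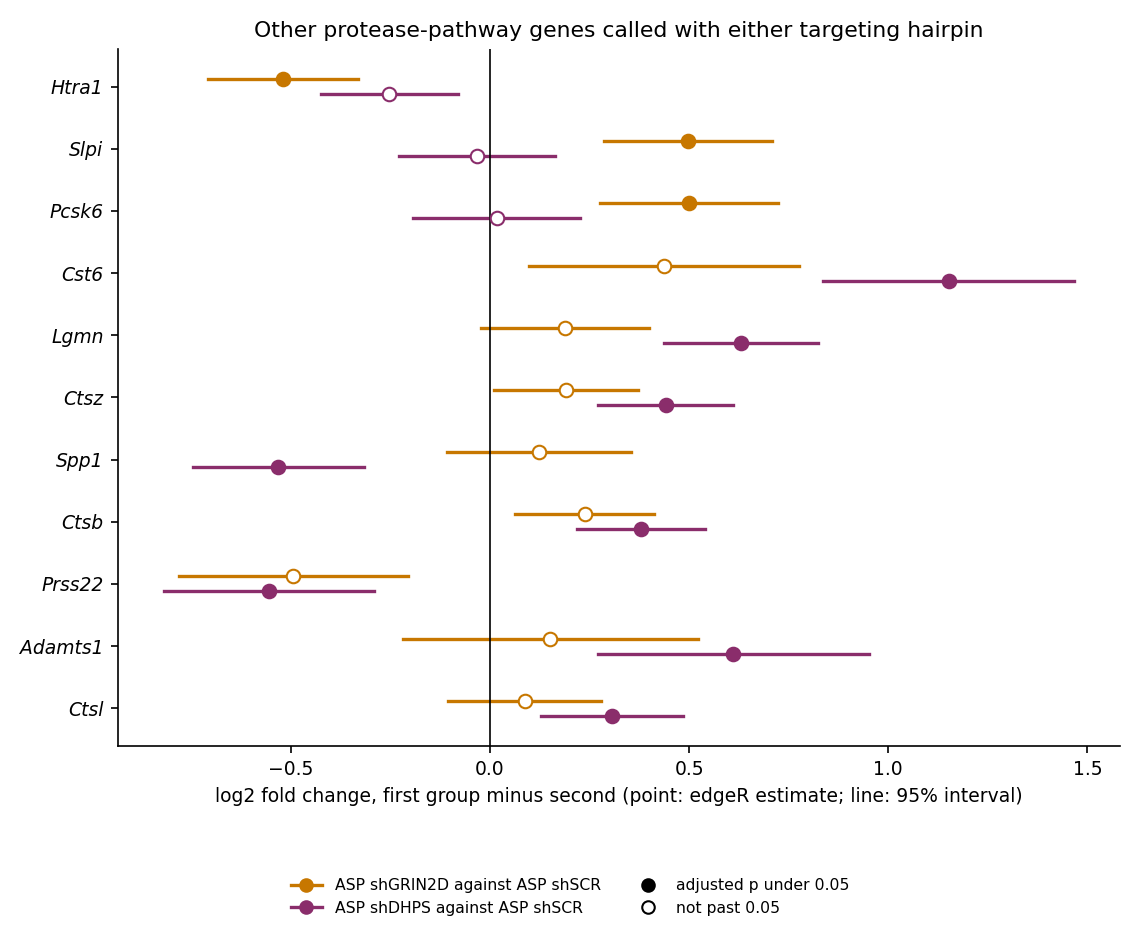
Log2 fold changes (points) with 95% intervals (lines) of the 11 other pathway genes called with shGRIN2D or shDHPS against ASP shSCR; filled points passed an adjusted p of 0.05. Cst6, Lgmn and the cathepsins lie to the right with shDHPS (0.31 to 1.15), and Spp1 and Prss22 to the left (-0.53 and -0.56).

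The genes most like each called gene across the 14 libraries were found by Pearson's r of log2 CPM among 9859 genes averaging 5 CPM or more, as a description only, since all points share the groups and replicate 2. For Mmp9 they were Lama3 (r = 0.969), a laminin chain of epithelial basement membranes, and Ppp1r21 (0.957). For Plau they were Acsl4 (0.973), an acyl-CoA synthetase for arachidonic acid, and Kntc1 (0.961), a kinetochore protein. For Plaur they were Prpf4 (0.943), a spliceosome protein, and Gpr137b (0.938), a lysosomal membrane protein. Since they were picked for likeness, their changes are no separate evidence. With shDHPS, Lama3 (-0.65, adjusted p = 0.00427), Ppp1r21 (-0.43, 0.00511) and Acsl4 (-0.44, 0.00613) fell and Gpr137b rose (0.50, 0.00194), while Kntc1 (-0.33, 0.0594) and Prpf4 (0.29, 0.0899) did not pass. With shGRIN2D, Acsl4 fell (-0.46, adjusted p = 0.0181) and the other 5 did not pass.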

How the data were processed

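The authors trimmed reads of stranded mRNA libraries with Trim Galore 0.6.6, checked them with FastQC 0.11.9, mapped them with STAR 2.6.1 to GRCm39, quantified genes with Salmon 1.4.0 and deposited the estimates rounded to whole counts, leaving out genes without expression (submitters' processing notes and methods). The authors' tables of DESeq2 1.34.0 comparisons and gene set results were not used. From the deposited counts, edgeR 4.0.16 (R 4.3.3) fitted all 14 libraries by group, with TMM scaling and no further filter, and quasi-likelihood tests were adjusted over 19525 genes by the Benjamini-Hochberg method (adjusted p under 0.05). The fit was run on simulated counts with known fold changes. Those libraries were drawn independently, so the shared deviations of same-numbered libraries were not covered. CPM and log2 CPM (prior count 2) are TMM-scaled. The members and lists were chosen with earlier results of these data known.

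Named were all listed genes; from the pathway lists up to 10 called genes per comparison with at least 5 CPM in the higher group, by smallest p; and 2 genes most like each called member. Totals were 12731123 to 23231378 counts. No 2 replicates of a group agreed within sampling noise, so the spread between libraries limits the precision as well as depth. The labels do not say that replicates are separate cultures, and p-values measure the spread between these libraries. Same-numbered shSCR libraries deviated together (correlations 0.20 to 0.51), so the replicate number was taken as pairing them. The main fit used group only, and the pairing entered through the replicate blocks. The alternatives were DESeq2 1.42.0, other scalings, a count filter, fewer groups, replicate blocks, a 1.5-fold test and leaving out libraries. Promoters are from RefSeq and transcripts from GENCODE vM21, both GRCm38, used for sequence and length only.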

Additional observations from a re-analysis of the deposited data

Results flagged for a closer look

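In ASP shSCR, the Mmp9 level of replicate 2 stood apart from the other libraries of its group. It was 109.7 CPM against 55.9 to 61.4 CPM in the other 3, and its gap to the nearest library was 0.897 of the group's whole range, above Dixon's 95% critical value for 4 libraries. It was the one such value among 18 groups of 4 libraries tested (9 genes in ASP shSCR and ASP shDHPS), and chance flags about 1 in 20 groups. Replicate 2 of NoASP shSCR was also the highest of its group, at 84.8 CPM. Both hairpin comparisons of Mmp9 passed the test with and without this library.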

How the results depend on the processing

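Mmp9 passed the threshold in all 15 alternatives with shGRIN2D (log2 fold change -1.29 to -0.90) and in all 16 with shDHPS, and Plaur did so in all 16 with shDHPS, apart from the test for a change beyond 1.5-fold. Plau with shDHPS passed in 10 of 16, also failing when only the groups compared were fitted (adjusted p = 0.0764) and without replicate 2 of both shSCR groups (0.0823), and Plau with shGRIN2D passed in 4 of 15, DESeq2 (0.00386) and the count filter (0.0482) among them. The aspartate comparison kept 0 called members throughout. With shGRIN2D the count of called members moved from 1 to 2 with DESeq2, the count filter, only the groups compared, or a replicate block within those groups, to 3 with a replicate block over all libraries, and to 0 with the 1.5-fold test, which left 1 with shDHPS. The gene added was Mmp13 with the block within the groups, Mmp13 and Plau with the block over all libraries, and Plau in the other cases. For ASP shDHPS against ASP shGRIN2D it moved from 0 to 2 with DESeq2, 1 with library size only, 1 with the count filter, 1 with only the groups compared, 2 without replicate 2 of both shSCR groups, and 3 and 4 with a replicate block over all libraries and within the groups. The replicate block gave 4 called members with shDHPS in either form (Mmp14 added). By the rule that every pair correlates above 0.1, the numbers paired neither hairpin comparison with ASP shSCR (correlations 0.04 to 0.26 with shDHPS, 3 of 4 above 0.1, and -0.12 to 0.04 with shGRIN2D) nor the hairpins (0.01 to 0.23). With 1 library left out the counts were 0 to 0 for aspartate, 1 to 1 with shGRIN2D, 2 to 3 with shDHPS and 0 to 1 between the hairpins. Over all genes the calls ran from 86 to 208 with shGRIN2D (86 without ASP shGRIN2D replicate 1, 114 without its replicate 2, 132 without ASP shSCR replicate 4), from 412 (without ASP shSCR replicate 2) to 894 with shDHPS, and from 209 (without ASP shGRIN2D replicate 1) to 577 between the hairpins. The calls rose to 442, 1379 and 933 with DESeq2 and to 611, 2150 and 1468 with a replicate block over all libraries, and were 8, 27 and 48 with the 1.5-fold test. Estimates changed sign in 34 fits, none past the threshold, at values of -0.19 to 0.20. Outside of leaving out 1 library these were, for aspartate, Plau (-0.00731 with library size only, -0.0215 with a replicate block, -0.0175 without both replicates 2) and Timp1 (-0.00256 and -0.00951 with replicate blocks); with shGRIN2D, Timp1 (-0.0143 with a replicate block, -0.0761 without both replicates 2), Timp2 (0.00515) and Plat (0.12), both without replicates 2; and Plat with shDHPS (0.0147 and 0.0101 with replicate blocks, 0.20 without replicates 2) and between the hairpins (-0.0225 with a replicate block). With 1 library left out, estimates that changed sign ran, for aspartate, from -0.17 to 0.36 (Mmp9), -0.19 to 0.69 (Mmp13), -0.0251 to 0.154 (Mmp14), -0.0101 to 0.207 (Timp1), -0.0435 to 0.104 (Timp2), -0.0263 to 0.0244 (Plau) and -0.0685 to 0.151 (Plaur); with shGRIN2D, from -0.0750 to 0.114 (Timp1), -0.0716 to 0.0198 (Timp2) and -0.235 to 0.118 (Plat); with shDHPS, from -0.157 to 0.197 (Plat); and between the hairpins, from -0.0636 to 0.0497 (Plau) and -0.0286 to 0.181 (Plat). The cause of these moves was not tested. Mmp13 is limited by depth, with 22 to 220 counts a library, and by the spread between libraries.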
